A study of Drosophila melanogaster with 2 samples.

Results

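The segment polarity genes en, inv, wg, hh, ptc, gsb, ci, fz, nkd and arm were examined for binding of the sisA-eGFP fusion in whole Drosophila melanogaster embryos. These 10 genes, of 13945 protein-coding genes on the main chromosome arms, were taken by name, and each was given a window of the gene body with 20 kb to each side. The chromatin immunoprecipitation (ChIP-seq) data came from 1 group, embryos aged 0 to 18 h of a sisA-GFP strain precipitated with an anti-GFP antibody, with 2 biological replicates. Both replicates carried the same transgene, the sex of the embryos was not collected, and the promoter that drives the fusion protein was not given in the labels. No other strain, stage or treatment was compared, so the values below are set between replicates and against the same calls over all genes or all summits. Sonicated fragments are labelled with sizes of 200 to 800 bp, no finer staging within the labelled ages is given, and the labels do not say whether the replicates came from separate cultures of flies. Each symbol matched 1 gene of the annotation.

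Segment polarity genes fix the boundary and the polarity of each segment of the fly embryo. Cells that make the homeodomain proteins Engrailed and Invected secrete the Hedgehog ligand, and the neighbouring row of cells, which lacks them, secretes the Wnt ligand Wingless, so that the rows maintain each other. Patched is the receptor of Hedgehog and Cubitus interruptus its zinc finger effector, while Frizzled is a receptor of Wingless, Armadillo (beta-catenin) its effector, Naked cuticle an inhibitor of Wingless signalling and Gooseberry a Pax protein that maintains wg. The sisA protein is a basic leucine zipper (bZIP) factor known as an X-linked signal element of sex determination.

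The peaks on which the results at nkd, fz and wg turn are shown first. A peak's height is the authors' own signal value, and its summit is the base at which their caller placed the maximum. The sequences are from the plus strand of the dm6 genome (RefSeq copy), whole for peaks of at most 300 bp and otherwise 50 bp to each side of the summit. Capitals mark any of the 17 short words searched for, whose counts follow further on. The nkd promoter peak (chr3L:19045544-19045665, signal 264) is the single summit within 1000 bp of a transcription start site (TSS) of any of the 10 genes, and nkd is transcribed from the minus strand. The fz peak (chr3L:14303957-14304180, signal 546) is the strongest in any of the windows, and the wg peak (chr2L:7296015-7296140, signal 214) is the strongest near wg. The window upstream of fz (chr3L:14272522-14272622, signal 222), a window in an intron of wg (chr2L:7313604-7313704, signal 126) and a window in an intron of nkd (chr3L:19033316-19033416, signal 174) are shown for comparison.
nkd promoter, 144 bp upstream of the TSS: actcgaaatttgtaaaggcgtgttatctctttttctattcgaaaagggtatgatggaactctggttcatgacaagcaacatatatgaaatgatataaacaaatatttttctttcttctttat
fz intron, 29731 bp downstream of the TSS: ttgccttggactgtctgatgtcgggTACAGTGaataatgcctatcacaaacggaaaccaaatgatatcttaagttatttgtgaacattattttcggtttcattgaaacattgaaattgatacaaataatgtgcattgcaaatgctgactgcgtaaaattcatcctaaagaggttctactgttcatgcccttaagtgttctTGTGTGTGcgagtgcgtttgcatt
wg upstream, 11070 bp from the TSS: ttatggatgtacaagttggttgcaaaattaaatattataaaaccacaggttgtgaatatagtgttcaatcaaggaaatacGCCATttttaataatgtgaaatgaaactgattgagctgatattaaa
fz upstream, 1771 bp from the TSS: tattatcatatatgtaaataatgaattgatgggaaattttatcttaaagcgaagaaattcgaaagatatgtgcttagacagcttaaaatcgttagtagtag
wg intron, 6495 bp downstream of the TSS: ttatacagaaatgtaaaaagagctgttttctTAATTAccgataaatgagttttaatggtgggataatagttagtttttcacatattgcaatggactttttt
nkd intron, 12083 bp downstream of the TSS: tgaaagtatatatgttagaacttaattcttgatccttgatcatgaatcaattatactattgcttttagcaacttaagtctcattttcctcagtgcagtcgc
The nkd promoter peak and the printed windows upstream of fz and in nkd held none of the words. The fz peak held overlapping copies of 2 words, read together as tacagtg, and 1 of a CA repeat, the wg peak 1 copy of gccat, and the wg intron window 1 of taatta. The nkd intron summit had copies of gccat and of the CA repeat farther out, within 100 bp but beyond the printed stretch. In the same way the summit of the wg peak had acactg farther out, and the wg intron summit acagtg and actgta.

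Of the 5133 summits of the conservative list on the main chromosome arms, 39 lay in the 10 windows. The list is the authors' stricter set of peaks reproducible between the replicates by the irreproducible discovery rate (IDR). The summits were spread unevenly, with 8 each at wg, ptc and fz, 6 at nkd, 4 at arm, 3 at hh and 2 at inv. None lay in the windows of en, gsb or ci, and the chromosome of ci, chromosome 4, held 1 conservative summit in all. A summit was thus called in the windows of 7 of the 10 genes, against 80.0% of all protein-coding genes by the same rule. The gene bodies of 5 of the 10 (inv, wg, ptc, fz and nkd) held a summit, against 13.0% of all genes. The windows are of unequal length, since the median gene length was 11.5 kb for the 10 genes and 2.17 kb for all genes.

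Per length, the 10 windows held 6.40 summits per 100 kb over 609.4 kb, against 3.83 over the main chromosome arms and a median of 4.70 over the windows of all protein-coding genes. In the conservative list the wg window (49.1 kb) held 16.3 per 100 kb, more than in 98.0% of gene windows, and the ptc window (55.6 kb) 14.4, more than in 96.1%. The value at wg rested on weak peaks and on the outer flanks. The wg window held 3 summits without replicate 2, 2 without replicate 1, 5 in the authors' longer list, 1 among peaks above the list's median signal and 3 with flanks of 10 kb. By the same settings the ptc window held 6, 6, 7, 5 and 7, so that ptc was then the denser of the pair. The density was 8.12 at arm, 7.34 at nkd, 5.96 at fz, 5.58 at hh and 2.66 at inv. Over the 10 genes the median was 5.77. Of the 39 summits, 14 lay in a gene body, 13 in an upstream flank and 12 in a downstream flank. All 14 summits in the bodies were in introns of the member and none was in one of its exons.

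**Figure D1:**
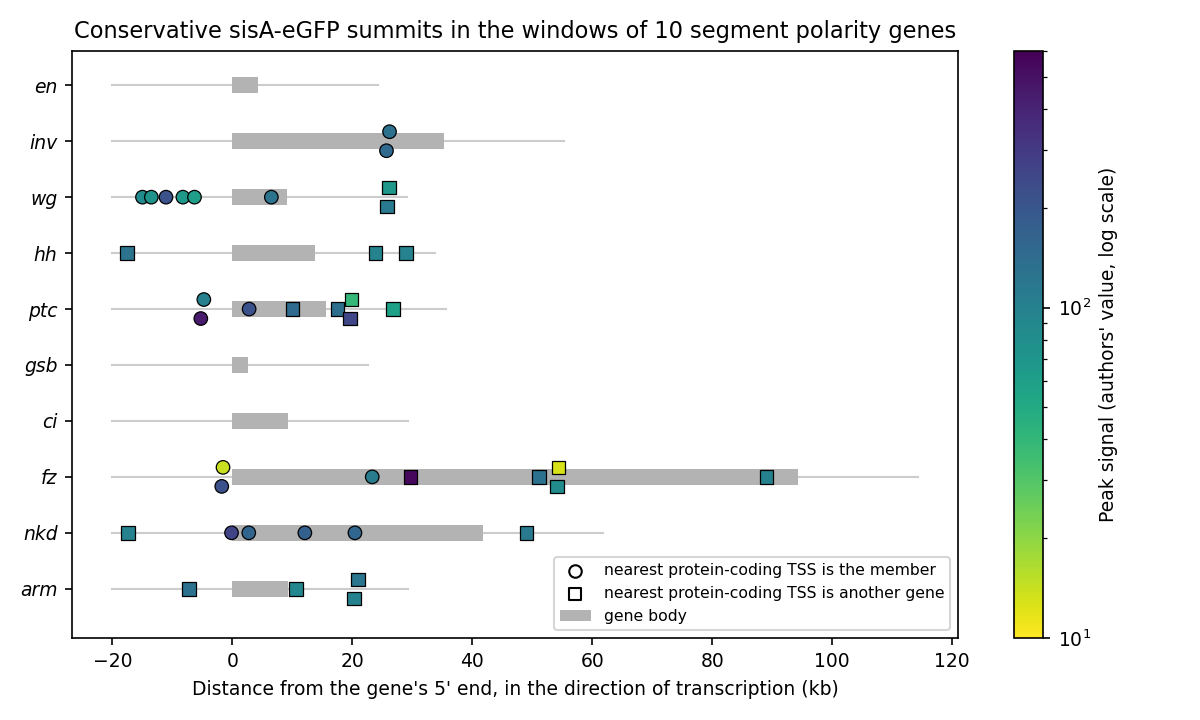
Conservative summits in the window of each gene, plotted by distance in kb from the gene's 5' end in the direction of transcription. Grey bars are gene bodies and grey lines the windows, colour gives the authors' signal on a log scale, and circles or squares show whether the nearest protein-coding TSS belongs to the member or to another gene. Summits under 1.2 kb apart are offset vertically. The windows of en, gsb and ci are empty, and all summits at hh and arm are squares.

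The summits were next set against the start sites of the segment polarity genes themselves. A TSS with a summit at most 1000 bp away was found for nkd alone, 1 of the 10, against 21.1% of all protein-coding genes. With so few genes this difference is small, and it was not tested. The distance from a TSS to the nearest summit had a median of 12386 bp for the 10 genes and 7026 bp for all genes. It was 144 bp at nkd, 1562 bp at fz, 2790 bp at ptc, 6318 bp at wg, 7222 bp at arm, 17549 bp at hh, 23626 bp at gsb, 23701 bp at inv and 25426 bp at en. Of the 39 summits, 18 had a member's TSS as the nearest protein-coding TSS and 21 that of another gene. Of those 21, 10 lay in the other gene's promoter, that is within 500 bp of its TSS. In all, 11 of the 39 (28.2%) lay in a promoter, against 37.1% of all conservative summits. A further 18 (46.2%) lay in introns, against 38.8% of all, and 10 (25.6%) between genes.

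Among the ligands, wg (2L from 7307159 to 7316265, plus strand) had a row of 5 summits upstream and 1 in an intron. The 5 upstream summits lay 14989, 13511, 11070, 8251 and 6318 bp from the TSS, with signals of 84.1, 74.2, 214, 66.0 and 61.7. The one at 11070 bp, whose peak is printed above, reached 125 in replicate 1 and 97.4 in replicate 2, and was the single one of the 5 that either replicate's own thresholded list also held. The other 4 ranged from 30.2 to 42.5 in replicate 1 and from 34.4 to 47.7 in replicate 2. They were below the median of 128 of all conservative summits, and 2 of them, at 8251 and 6318 bp, passed the conservative threshold with scores of 956 and 901. The score is a whole number up to 1000 derived from the IDR, and every peak of the list had at least 830.

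The intron summit of wg, 6495 bp into the gene, had a signal of 126, with 70.4 in replicate 1 and 49.8 in replicate 2. A pair of peaks that overlap lay in the downstream flank, 326 bp apart, with signals of 112 and 67.4. They were 746 and 420 bp from the TSS of Wnt6, the gene of another Wnt ligand and the next in the same cluster. The upstream summit of signal 214 was also the strongest in the window of Wnt4, a further Wnt gene, at 18918 bp from its TSS. The summits 14989 and 13511 bp upstream of wg lie on the Wnt4 side of it, and so were in that window too. Without replicate 2, from the list of replicate 1 alone, the wg window held 3 summits, and without replicate 1 it held 2.

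At hh (3R from 23128169 to 23141906, minus strand) no summit lay in the gene body or within 10 kb of it. The 3 summits of the window were each in the promoter of a neighbouring gene. One, at 127 with 67.2 in replicate 1 and 53.9 in replicate 2, was 139 bp from the TSS of VhaAC39-2, which encodes a subunit of the vacuolar proton pump. The others, with signals of 96.9 and 96.6, were 231 bp from the TSS of Cow and 111 bp from that of Rassf. A peak inside hh fell just short of the list. It lay at 3R from 23135918 to 23136257 (summit 23136088), 5818 bp from the TSS, and its signal was 68.4, with 27.8 in replicate 1 and 36.7 in replicate 2. Its score was 811 in the ranked list behind the conservative one and 846 in the authors' longer thresholded list, which kept it.

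Among the receptors, ptc (2R from 8649649 to 8665223, plus strand) had the second strongest summit of the 10 windows, upstream of the gene. It lay 5264 bp from the TSS, at 2R from 8644270 to 8644487 (summit 8644385), between genes. Its signal was 446, rank 422 of the 5133 conservative summits, with 259 in replicate 1 and 190 in replicate 2. A weaker summit lay 505 bp from it, 4759 bp from the TSS, at 102 with 57.4 in replicate 1 and 50.1 in replicate 2. Within ptc, intron summits 2790 and 10045 bp from the TSS had signals of 219 and 145. The first of these was at 106 in replicate 1 and 117 in replicate 2, and the second at 89.4 in replicate 1 and 56.6 in replicate 2.

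The 4 summits in the downstream flank of ptc belonged by position to Acsl, which encodes a long-chain acyl-CoA synthetase. They lay within that gene, 978, 1435, 1235 and 146 bp from its nearest TSS, with signals of 137, 251, 39.4 and 59.0. The peak of 39.4 overlapped that of 251 at 200 bp and had no summit within 100 bp in the ranked list of either replicate. The peak of 59.0 was the nearest of all 39 to the threshold, with a score of 839. Each replicate's own list held 6 summits in the ptc window, but not the same 6. That of replicate 2 lacked the summit 4759 bp from the ptc TSS. It held another 15124 bp from that TSS, of signal 39.3 in replicate 2, with no conservative summit within 100 bp.

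The fz gene (3L from 14274343 to 14368639, plus strand) is the longest of the 10 at 94.3 kb, and 6 of its 8 summits were in its introns. The strongest, printed above, had a signal of 546, rank 289 of the list, with 331 in replicate 1 and 216 in replicate 2. It lay 29731 bp from the fz TSS and 25272 bp from that of CG13482, whose TSS lies within fz and was the nearest of a protein-coding gene. The other fz intron summits had signals of 109, 130, 83.6, 12.9 and 101 in order along the gene, from 23316 to 89035 bp from the TSS. Upstream, a summit 1771 bp from the TSS had a signal of 222, with 139 in replicate 1 and 91.0 in replicate 2. In fz, 2 of the 8 peaks were weak neighbours of a stronger one. One of signal 14.2 overlapped the upstream peak, with summits 209 bp apart, and one of signal 12.9 overlapped an intron peak of 83.6, with summits 201 bp apart. Neither had a summit within 100 bp in the ranked list of a single replicate, although both had the highest score of 1000.

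The number of summits at fz differed between the replicates. It was 8 in the list of replicate 1 alone, that is without replicate 2, and 3 without replicate 1. The 8 were not the same as the 8 conservative summits. They included intron summits 61662 and 64709 bp from the TSS that had no conservative summit within 100 bp. The 3 in replicate 2's list were the strong intron summit (216), the upstream one (91.0) and an intron one 51158 bp from the TSS (48.4), and replicate 1's list held all 3 as well. Beside the summit at 64709 bp, the longer thresholded list had a peak of signal 187, at 3L from 14338898 to 14339237 and 64725 bp from the TSS. It was at 73.8 in replicate 1, had no summit within 100 bp in the ranked list of replicate 2 and was not in the conservative list.

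The inhibitor gene nkd (3L from 19003741 to 19045449, minus strand) was the one with a summit at its own start site. The promoter peak printed above had a signal of 264, rank 978, with 176 in replicate 1 and 89.8 in replicate 2. Within nkd, 3 intron summits lay 2732, 12083 and 20433 bp from the TSS with signals of 160, 174 and 157. They ranged from 90.9 to 114 in replicate 1 and from 54.5 to 68.2 in replicate 2, and both replicates' own lists held all 4. These 4 summits were each above the median of 128 for the list and had a score of 1000. The remaining 2 in the window, of signal 98.7 and 112, were 75 bp from the TSS of Ugt316A1 and 564 bp from that of CG18135. One more intron peak, 3455 bp from the TSS with a signal of 73.0, was in the longer list but not the conservative one. It was at 48.5 in replicate 1 and 18.9 in replicate 2, and its score in the ranked list behind the conservative one was 82.

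At arm, which encodes beta-catenin and lies on the X chromosome from 1891401 to 1900646 on the minus strand, no summit was in the gene body. All 4 summits of the window were in promoters of neighbours, 48 bp from a TSS of CG14818, 120 bp from Coa8, 130 bp from trr and 111 bp from Edem1. Their signals were 123, 101, 90.2 and 129. The gene trr encodes a histone methyltransferase and Edem1 acts in the disposal of misfolded proteins. Their signals in replicate 1 were 84.3, 39.3, 46.7 and 67.6, and in replicate 2 they were 42.5, 61.7, 40.4 and 51.7, so that replicate 2 was higher at Coa8 alone. Both replicates' own lists held all but the one at trr, which was in neither.

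**Figure D2:**
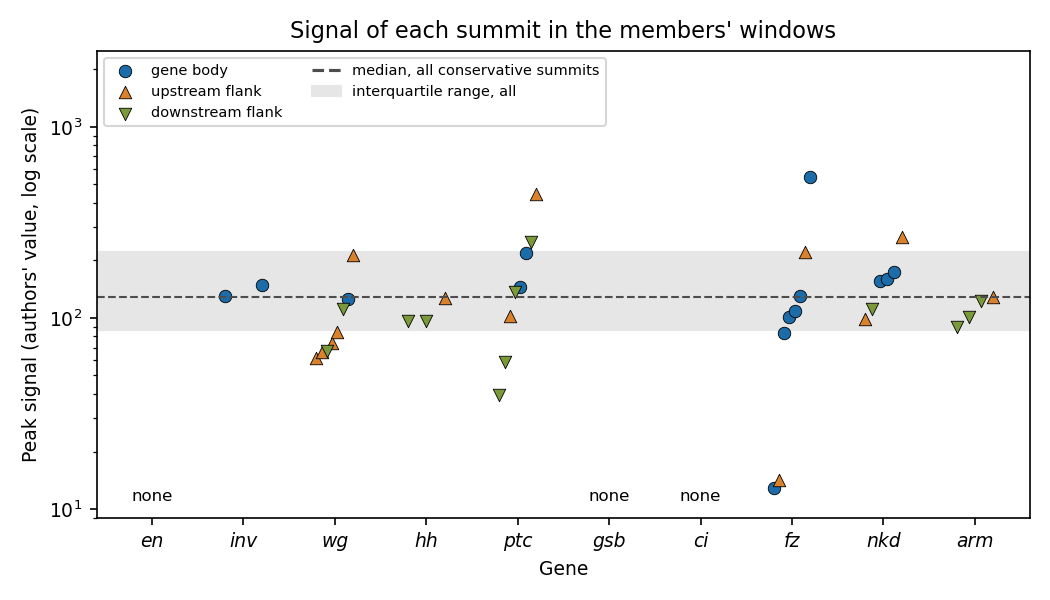
Authors' signal (log scale) of every conservative summit in the window of each gene, with the position of the summit relative to the gene shown by colour and marker. The dashed line is the median of all 5133 conservative summits (128) and the band their interquartile range (86.3 to 220). Summits above the band are few: 546 and 222 at fz, 446 and 251 at ptc and 264 at nkd.

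Of the transcription factor genes, inv (2R from 11474465 to 11509695, plus strand) alone had summits. Both lay deep in its introns, 24448 and 24957 bp from the nearest inv TSS and 509 bp apart, at 2R from 11499986 to 11500325 and from 11500495 to 11500834. Their signals were 149 and 130. Both were higher in replicate 2 (91.8 and 87.3) than in replicate 1 (74.7 and 59.4), and both were in each replicate's own list.

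The neighbouring en gene (2R from 11524006 to 11528210, minus strand), with which inv shares regulatory DNA, had no summit in its window in the conservative list, the longer list or the list of either replicate alone. The stretch without a conservative summit that holds en was 53.0 kb long, from the second inv summit to the next summit beyond en, and 88.7% of the 5127 gaps between neighbouring summits were shorter. The median gap was 10.1 kb. The ranked list, which holds peaks before thresholding, had 59 peaks in the en window, or 1.33 per kb, more than in 82.0% of gene windows. The strongest of these had a signal of 51.4 and a score of 557, and lay 14845 bp from a TSS.

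The gsb window (gene at 2R from 25061964 to 25064643, plus strand) was also empty in all 4 thresholded lists. Of all protein-coding genes, 81.6% had a conservative summit nearer to a TSS than gsb did. The gap around it was 65.7 kb, longer than 91.6% of gaps, and it took in the related Pax gene gsb-n, whose nearest summit was 32483 bp away. Only 18 ranked peaks lay there, or 0.422 per kb, against a median of 1.09 per kb over the windows of all protein-coding genes, and 9.33% of gene windows held fewer per kb. The strongest had a signal of 40.1 and a score of 117.

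The ci window (gene at chromosome 4 from 47710 to 57041, minus strand) was empty, and so was nearly all of its chromosome. Chromosome 4 is 1348 kb long with 80 protein-coding genes, and held 1 conservative summit, at 970230 bp from a ci TSS. It held 12 peaks in the ranked list, none of them in the ci window, and 4 and 1 in the own lists of replicate 1 and replicate 2. The ranked list had 116006 peaks over the 133881 kb of the main chromosome arms. The empty ci window was thus like the rest of its chromosome, even before thresholding. The pathway genes pan and lgs, which encode the TCF factor and the cofactor Legless, lie on the same chromosome and were empty as well.

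Below the threshold, most of these start sites carried weak peaks. In the ranked list 9 of the 10 genes (all but ci) had a peak within 1000 bp of a TSS, against 81.5% of all protein-coding genes. The strongest such peak had a signal of 264 at nkd, 47.5 at ptc, 41.4 at hh, 37.0 at arm, 36.4 at en, 35.2 at gsb, 34.2 at wg, 34.0 at fz and 32.9 at inv. The median over all protein-coding genes was 35.3, and nkd was above 93.6% of genes while the other 8 were above 45.6% to 67.2%. In the ranked list of replicate 1 the value was 176 at nkd and 9.11 to 28.9 at the other 8, and in that of replicate 2 it was 89.8 at nkd and 16.2 to 32.4 at the others.

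**Figure D3:**
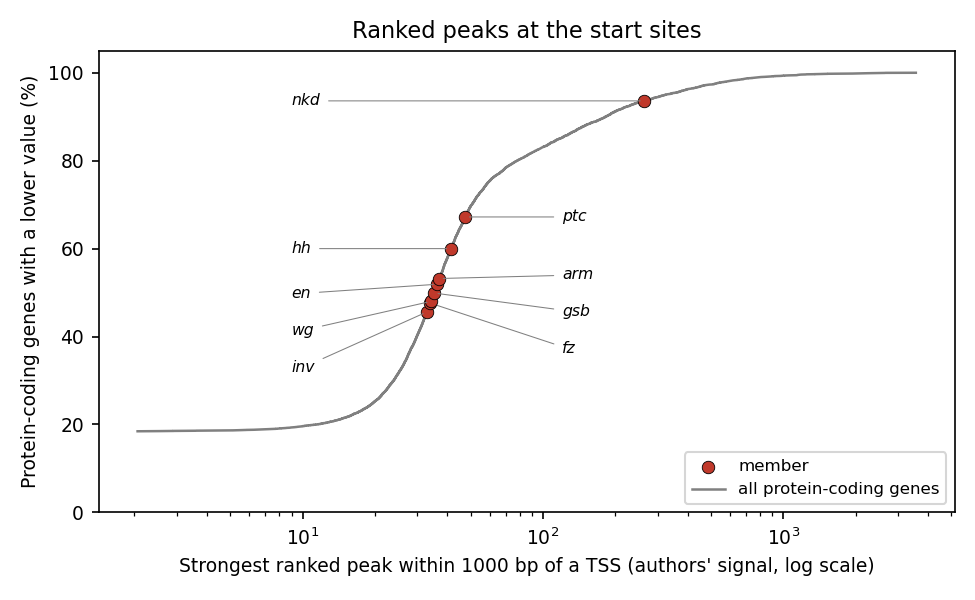
Strongest peak of the ranked list within 1000 bp of a TSS for each gene (authors' signal, log scale) against the percent of protein-coding genes with a lower value. The grey curve is all 13945 protein-coding genes, of which those with no ranked peak there count as the lowest. Only nkd (264) stands on the upper part, ci has no peak and is not drawn, and the other 8 lie between 32.9 and 47.5.

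In signal the 39 summits had a median of 112, with an interquartile range of 87.2 to 153, against 128 and 86.3 to 220 for all conservative summits. By position the median was 138 for the 14 in the bodies of the genes. It was 140 for the 18 nearest to a member's TSS and 101 for the 21 nearest to another gene's. The conservative list was itself chosen for agreement between these replicates, so matches to their lists are not independent support. A summit lay within 100 bp in the ranked lists of both replicates for 34 of the 39 (87.2%), against 94.4% of all conservative summits. In the thresholded lists of both replicates it did for 22 (56.4%), against 57.5%. A further 7 were in the thresholded list of 1 replicate and 10 in neither. Of the 5 without a match in both ranked lists, 3 were the weak peaks at ptc and fz that overlapped a stronger one. The other 2, at Wnt6 and Acsl, had a match in replicate 2 alone, at 40.8 and 29.8.

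Over the 34 matched summits the signal was higher in replicate 1 for 26 (76.5%) and in replicate 2 for 8, close to the 75.3% of all matched summits that were higher in replicate 1. The median ratio of replicate 1 to replicate 2 was 1.22 for the 34 and 1.19 for all. The lists of the replicates need not be on the same scale, and the depth of each is unknown. The 8 were both summits at inv, 3 upstream of wg, 1 in ptc, 1 at CG18135 and 1 at Coa8. Across the 34 summits, which share 2 libraries, Spearman's rho between the replicates was 0.760, and across all 4847 matched summits it was 0.872. Both values were taken on peaks already selected for agreement between the replicates.

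**Figure D4:**
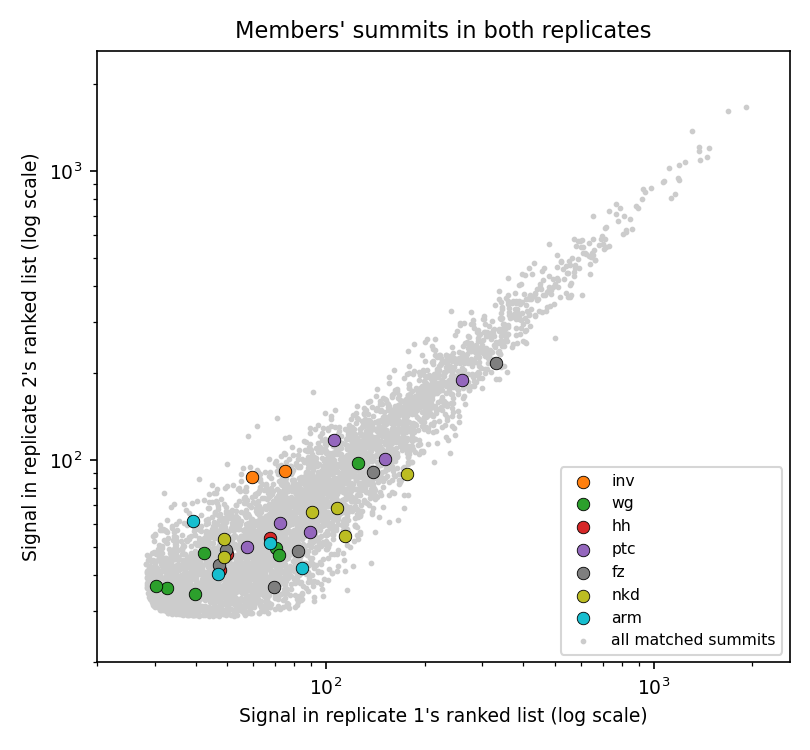
Signal of each summit in the ranked list of replicate 1 (x axis) and replicate 2 (y axis), both on log scales and each in the authors' units for that list. Coloured points are the 34 summits of the windows with a match in both lists, grey points all matched conservative summits. The fz (331 and 216) and ptc (259 and 190) summits are the highest of the coloured points, and both inv summits (74.7 and 91.8, and 59.4 and 87.3) are higher in replicate 2.

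Of the 39 peaks, 8 (20.5%) overlapped another conservative peak, against 5.28% of all, a difference that was not tested. They formed 4 pairs, 1 at wg, 1 at ptc and 2 at fz, and within each pair the peaks cover some of the same bases. With each pair counted once, 35 summits remained and the density was 5.74 per 100 kb, against 3.73 over the main chromosome arms counted in the same way.

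Words known as binding sites were then counted within 100 bp of the 39 summits on both strands. None of the 4 bZIP words searched was found, against 2.42% of all conservative summits with at least 1 of them. By word that share was 0.273% for TGACGTCA, 1.64% for TGACTCA, 0.292% for TTACGTAA and 0.234% for TTGCGCAA. Also absent were GAGAGAG (2.55% of all summits), TATCGATA (2.36%) and CAGGTAG (0.877%), words of the factors GAF, DREF and Zelda, and 2 words of the pathways themselves, TGGGTGGTC of Ci (0.0974%) and CTTTGAT of TCF (3.20%). The E-box CACGTG was at 1 summit (2.56%, against 1.79%), and CACACACA at 2 (5.13%, against 2.98%). The Pho word GCCAT was at 11 (28.2%, against 26.8%), among them 4 of the summits in the wg window. TAATTA, a core recognised by homeodomain proteins, was at 4 (10.3%, against 16.2%).

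The 4 words of 6 bases most raised at all conservative summits over windows centred 500 bp away were set beside them, among words at 15% or more of summits. AGTGTA was near 10 of the 39 summits (25.6%), against 17.9% of all summits and 6.80% of the windows 500 bp away. Among the 10 were the weaker peaks of overlapping pairs at wg (67.4) and fz (14.2 and 12.9), so some of these windows share bases with a stronger peak's. ACACTG and ACAGTG were each near 7 (17.9%), against 19.6% and 21.1% of all. ACTGTA was near 6 (15.4%), against 15.0%. These words overlap one another and were chosen on the whole list, which includes the 39. GC content within 100 bp of the summit had a median of 35.3% at the 39 summits and 35.8% at all.

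Start sites of other genes of the Wingless and Hedgehog pathways, with some segmentation genes, were then read in the same way. By the same distance 16 of 54 such genes (29.6%) were called, against 1 of the 10 and against the 21.1% of all protein-coding genes given above, and the nearest summit lay at a median of 4324 bp. The differences were not tested. The strongest was at gish (signal 1238), a casein kinase gene, followed by sgg (606), the GSK3 kinase of the complex that degrades beta-catenin, and dco (551), another casein kinase gene. In replicate 1 and replicate 2 these peaks were at 728 and 551 for gish, 343 and 256 for sgg, and 257 and 294 for dco.

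The scaffold genes of the degradation complex Axn (91.6) and Apc2 (164) and its kinase gene CkIalpha (142) were called too. So were nej (349), which encodes the coactivator CBP, dlp (235), a glypican gene, and the heparan sulfate polymerase genes ttv (153) and sotv (325). In the Hedgehog pathway smo (107), the signal transducer, Pka-C1 (76.3), a kinase gene, and rdx (361), which encodes an adaptor in the degradation of Ci, had a summit. The remaining 3 were Wnt6 (112), lin (168) and the phosphatase gene Ptp61F (85.4). The other Wnt genes of the list, Wnt2, Wnt4 and Wnt5, and the Wnt receptor genes fz2, fz3 and arr were not called. They were picked out after their values were seen, and not all uncalled genes are named.

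Among the 38 pathway genes without a summit at a TSS, the strongest in a window was at eve, with a signal of 1153, but it was 172 bp from the TSS of Pal1 and 19413 bp from that of eve. A summit of 712 lay 4321 bp from the TSS of slp2 and 6844 bp from that of slp1, neighbouring segmentation genes whose windows share it, with slp2 as its nearest protein-coding gene. The pygo window had one of 691, 129 bp from the TSS of CG1635. Control libraries were not analysed here, and all counts of genes or summits above are descriptions of 1 group of 2 replicates.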

How the data were processed

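Per the file listings deposited with the series, the authors made narrowPeak lists on dm6 from the alignments of both replicates (a conservative list, a longer thresholded list and ranked lists before thresholding) and from each replicate alone. For the aligner and the peak caller, names and versions were not given in the sources used here. The lists hold the signal deposited by the authors, with no normalization stated, and the authors' score, which follows the IDR. Read depth is unknown, so no interval that needs it is given.

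Scripts in Python 3.11.15 (numpy 2.4.6, pandas 2.3.3, scipy 1.17.1, matplotlib 3.10.9) read coordinates as 1-based. Genes and start sites came from Ensembl release 115 (BDGP 6.54), and sequence from the RefSeq copy of the same assembly. No peak ended beyond its chromosome arm. The arms were 2L, 2R, 3L, 3R, 4 and X. Location was assigned in the order promoter, 5' UTR, coding, intron, 3' UTR, intergenic, from protein-coding genes. A match between lists meant summits at most 100 bp apart. The replicates were not averaged, and no test was run, since 1 group gives no contrast between samples. Counting functions were tested on simulated summits at known distances. The members, pathway list and words were chosen with earlier results of these data known, and the words for Ci, TCF and homeodomain proteins and the 4 raised words after the peaks were seen. All 10 members are named. Of the pathway list, those called at a TSS and the 4 others with the strongest summit in their windows are named, and genes nearest to a summit are named where they neighbour a member. The uncalled Wnt and receptor genes, pan, lgs and gsb-n were named after their values were seen. Alternatives were flanks of 10 or 5 kb or none, TSS distances of 500 or 2000 bp, the most upstream TSS, the longer list, stronger peaks, each replicate's list, other match distances and word windows, and overlapping peaks counted once.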

Additional observations from a re-analysis of the deposited data

How the results depend on the processing

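The number of summits in the windows followed the width of the flank, at 22 with flanks of 5 kb and 14 in the gene bodies alone, and was 16 among peaks above the list's median signal. The 3 empty windows, of en, gsb and ci, were empty in all 4 thresholded lists, and hh was empty as well with flanks of 10 kb or less and among the stronger peaks. Per 100 kb the density was 2.63 among the stronger peaks, against 1.92 over the chromosome arms, and it was above the arms' value in every list and with every flank tried. Without replicate 2 and without replicate 1 the windows held 31 and 27 summits, at densities of 5.09 and 4.43, against 3.53 and 2.55 over the arms. The median over all gene windows was not set beside these alternatives. In the conservative list wg and ptc had the densest windows, at 16.3 and 14.4, and no density was taken without them. Support in both ranked lists was 100% for the 16 stronger summits, which come from a list selected for agreement between the replicates. Within 2000 bp of a TSS 2 genes were called, fz and nkd, and under the other settings nkd alone. Of 51 comparisons of a whole-set result with its alternatives, 44 stayed within 1.5 times the reported count or within its 95% counting interval (Poisson for densities, exact binomial for shares). The alternatives draw on the same libraries and many share peaks, and the intervals treat nearby summits as independent. The 44 are therefore not separate checks of the results. No paired analysis was possible because there was 1 group. Leaving out a replicate used the other replicate's own list, which the authors thresholded separately. No read depth was given, so whether a weak or empty site reflects depth could not be measured.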
